A study of Homo sapiens with 15 samples.

Results

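A group of 10 long non-coding RNAs that have been linked with cellular senescence were followed here in MRC-5 cells: MALAT1, NEAT1, H19, MEG3, GAS5, MIR31HG, MIR22HG, CDKN2B-AS1, DANCR and PVT1. They were listed by name, with no threshold on a measured value but with earlier results of these data known, and are 10 of the 57272 genes in the count table. MRC-5 is a widely distributed strain of human fetal lung fibroblasts with a finite lifespan in culture. RNA was sequenced from 15 libraries, 3 for each of 5 groups, all grown at 5% oxygen. Young cells, collected at population doubling (PD) 30, carried either the empty lentiviral vector pWPIR-GFP or the same vector expressing the telomere protein TRF2, both with a control siRNA, or carried the empty vector with an siRNA against LMNB1, the gene of the nuclear lamina protein Lamin B1 (siLMNB1). Senescent cells were infected before they stopped dividing, with the empty vector or with TRF2, and received the control siRNA once growth had reached a plateau. Every group was therefore infected and transfected. Per the study's methods, senescent cells with TRF2 stopped dividing at a later PD than those with the empty vector and had carried TRF2 over many doublings, whereas young cells carried it for days. PD and length of exposure therefore differ along with TRF2 in the comparisons that involve senescent TRF2 cells. The study calls its replicates biological, and the labels do not say whether they were separate cultures, so the p-values measure the spread between these libraries.

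Long non-coding RNAs are transcripts that make no protein and act as RNA, for example as scaffolds of nuclear bodies, as guides of chromatin factors, or as hosts from which small nucleolar RNAs (snoRNAs) and microRNAs are cut. In fibroblasts, several of them are tied to the arrest of senescence through the CDKN2A and CDKN2B inhibitors of the cell cycle, through polycomb repression or through p53. Many are retained in the nucleus, where the lamina and telomeres organise chromatin.

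All 6 senescent libraries are labelled as a reanalysis of earlier records and no young library is, so senescence and deposit cannot be told apart. The record behind the third senescent empty vector replicate carries a number far from those of the other 5. Total counts ranged from 26725885 to 43116046 per library. The 43 genes at 0 in all 6 senescent libraries but at 10 counts or more in all 9 young libraries were mostly genes inside other genes: 39 of the 41 with an annotation shared over 50% of their exonic bases, against 3.36% of 13054 genes at 10 counts or more in the young libraries. The slope of a library's log2 level on gene GC content was taken relative to young empty vector. It was between -0.00633 and 0.134 per 10 percentage points in the young libraries. In senescent empty vector replicate 3 it was 0.823, and in the other 5 senescent libraries between 0.46 and 0.506. LMNB1 was at 2.36 to 2.91 CPM (counts scaled to library size) after siLMNB1 against 58.6 to 61 in young empty vector cells, and TERF2, the gene of TRF2, was at 128 to 307 CPM in young TRF2 cells and 210 to 285 in senescent TRF2 cells against 21.9 to 26 in the other groups. Of 7 fibroblast markers the collagen COL1A1 was at 11100 to 17200 CPM in all libraries, but others moved in both directions. In senescent against young empty vector cells LUM fell by 1.34 and VIM by 0.8 while THY1 rose by 1.23 and PDGFRB by 0.24 on the log2 scale, and 3 were not called. After siLMNB1 4 were higher, LUM by 1.68, and 2 were lower, VIM with a log2 fold change of -0.62. Of 9 markers of other cell types, CD3E was at 0 in all libraries and CDH1, CDH5, PECAM1 and PTPRC stayed at or below 0.326 CPM. EPCAM was at 0.0372 to 0.928 CPM and was called higher after siLMNB1, by 1.53 on the log2 scale. KRT5, a keratin of epithelial cells, was at 7.29 CPM in young empty vector replicate 1, whose summed level of the 9 markers was 9.17 CPM against 1.15 to 2.13 in the other young libraries. Without that library the number of RNAs called in the comparison of senescent with young empty vector cells was also 6. In the senescent libraries that sum was 3.96 to 5.57 CPM, led by CD14 and VWF. In senescent against young empty vector cells both were called higher, CD14 by 3.64 and VWF by 1.84 on the log2 scale. The part of these differences in the results was not tested.

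Levels differ widely among the 10 RNAs. Per kilobase of exon, GAS5 was the most abundant of them in young empty vector cells at 18.3 ± 0.351 CPM per kb (SD, n = 3). MIR22HG followed at 5.05 ± 0.438 and MALAT1 at 2.75 ± 0.622 CPM per kb. NEAT1 at 2.02 ± 0.0226, DANCR at 1.9 ± 0.159 and MEG3 at 1.81 ± 0.11 CPM per kb came next, with the library ranges of DANCR overlapping those of both others. MIR31HG at 0.18 ± 0.0244 and PVT1 at 0.158 ± 0.0215 CPM per kb also overlapped each other. H19 and CDKN2B-AS1 were near the limit of detection at 0.0107 ± 0.0186 and 0.00763 ± 0.00242 CPM per kb. In senescent empty vector cells the order changed: by its mean MEG3 stood behind GAS5 alone, at 12 ± 7.61 CPM per kb, with a range from 3.53 to 18.2 that took in the whole of MIR22HG's. Of the 10 RNAs, 8 passed the filter on low counts and could be tested. By the annotation used here, 83.7% of MALAT1's exonic bases are shared with genes on the opposite strand. Most of these bases, 8121, lie in TALAM1, which is not among the genes counted. The other gene on that strand shares 610 bases and had 0 counts in every library. Whether counts of MALAT1 were lost over the shared bases cannot be told from these values. The level of MALAT1 stays uncertain, since the strand setting of the counting is not given in the sources used here.

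**Figure D1:**
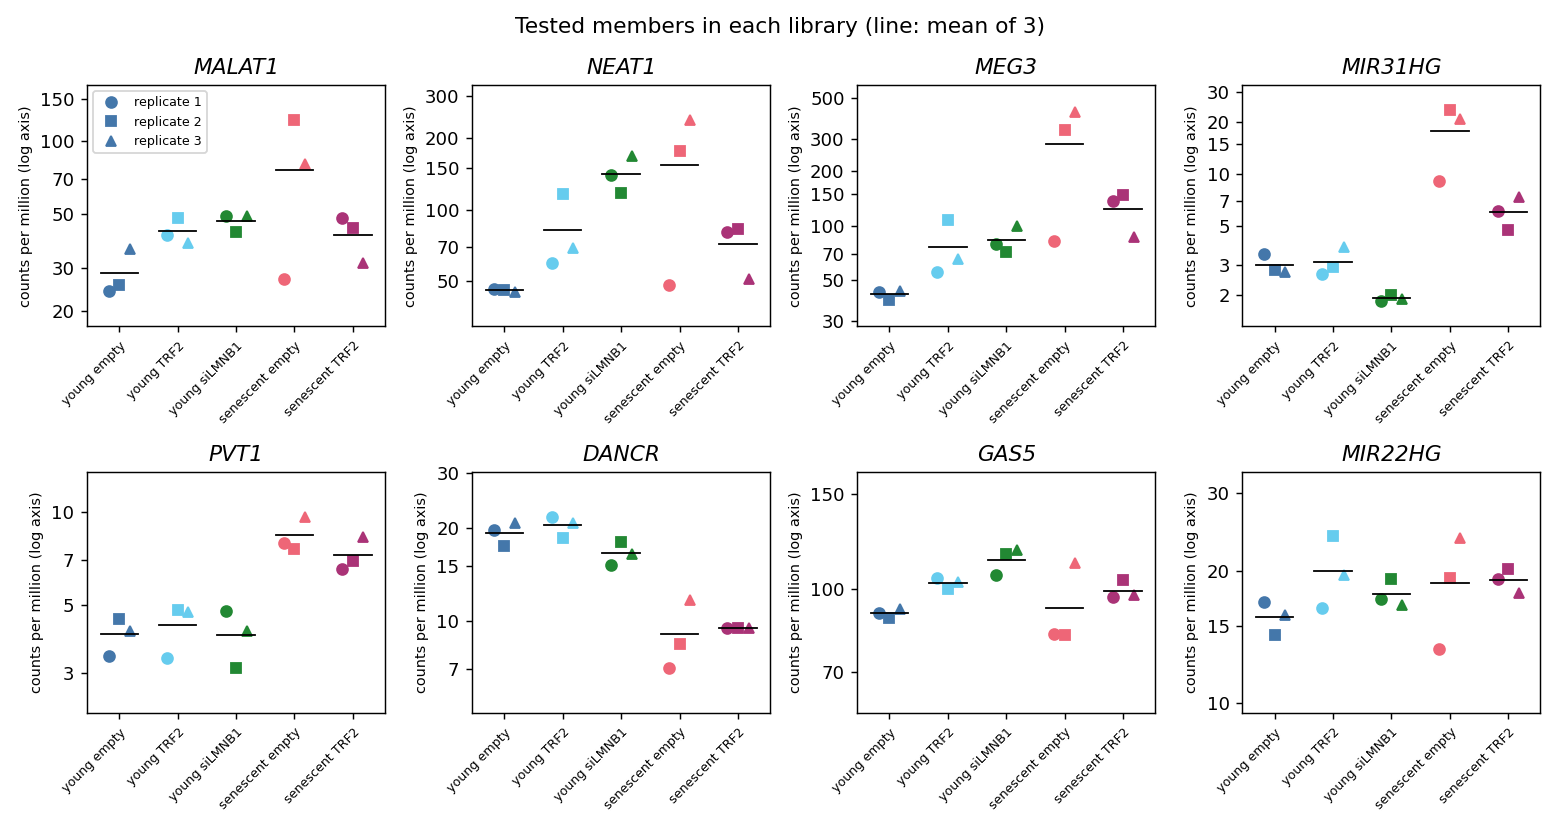
Level of the 8 tested RNAs in each library, in CPM on a log axis, for the 5 groups along the horizontal axis. Symbols are the replicates, colours the groups and lines the mean of 3. Senescent empty vector replicate 1 is the lowest of its group for NEAT1 (48.3), MALAT1 (27.2), MEG3 (81.9) and MIR31HG (9.11).

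Senescent cells with the empty vector were first compared with young cells with the empty vector. MEG3, MIR31HG, NEAT1, MALAT1 and PVT1 were higher and DANCR was lower, while GAS5 and MIR22HG did not pass the test. Thus 5 of 8 tested RNAs were called higher and 1 lower by edgeR's quasi-likelihood test at a Benjamini-Hochberg adjusted p below 0.05, where 32.7% of all 15799 tested genes were called higher and 31.9% lower. The median log2 fold change was 1.24 over the 8 RNAs, 0.37 over the 1641 long non-coding RNA genes tested and 0.02 over all genes tested. Among those 1641 genes 30.5% were called higher and 14.1% lower. All 4 markers of dividing cells (MKI67, TOP2A, CCNB1 and CDK1) were called lower, with a summed level of 52.2 to 63.1 CPM in the senescent and 406 to 433 CPM in the young libraries. In bulk RNA a change in RNA per cell and a change in the share of cells that make it cannot be told apart.

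MEG3 is a maternally expressed, imprinted RNA that is known for its effect on p53 and on polycomb targeting. It was at 43.1, 39.1 and 43.8 CPM in the young empty vector libraries and at 81.9, 334 and 423 CPM in the senescent ones. The groups did not overlap, and senescent replicate 1 lay nearer to the young libraries than to the other two. The log2 fold change was 2.74 (SE 0.42, edgeR adjusted p = 3.0e-05), a 6.66-fold difference, and was 3.17 without senescent replicate 1 and 2.29 without replicate 3. MEG3 lies on chromosome 14, at 100779410 to 100861031 on the plus strand (GRCh38, GENCODE 44). DLK1, the paternally expressed gene 41.2 kb before it, was low but was also higher in the senescent cells, with 0.0349 to 0.264 CPM in young and 0.892 to 2.17 CPM in senescent empty vector cells (log2 fold change 3.16, SE 0.52, edgeR adjusted p = 5.6e-05). MEG9, a non-coding RNA further along the same imprinted cluster, rose by 1.61 on the log2 scale (edgeR adjusted p = 0.00186). MEG8, of the same cluster, was not called (0.28, edgeR adjusted p = 0.174), and PPP2R5C, the nearest tested protein-coding gene after MEG3 at 901 kb, fell by 0.27 on the log2 scale (edgeR adjusted p = 0.00729). MIR770, a microRNA gene within an exon of MEG3, had 4 to 19 counts in the young libraries and 0 in every senescent library. With the genes that share its exonic bases summed into it, the log2 fold change of MEG3 was 2.72.

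The promoter of MEG3 is shown because this RNA had the highest fitted log2 fold change of the 8 in this comparison, although its 2.74 (SE 0.42) and the 2.58 (SE 0.28) of MIR31HG differed by less than their errors. It was taken from RefSeq on GRCh38.p14, as 250 bases before and 50 after the most upstream start listed there, on the plus strand at chr14:100825858-100826157. Capitals mark the palindromic cyclic AMP response element TGACGTCA, whose first base lies 50 bases before the start:
MEG3: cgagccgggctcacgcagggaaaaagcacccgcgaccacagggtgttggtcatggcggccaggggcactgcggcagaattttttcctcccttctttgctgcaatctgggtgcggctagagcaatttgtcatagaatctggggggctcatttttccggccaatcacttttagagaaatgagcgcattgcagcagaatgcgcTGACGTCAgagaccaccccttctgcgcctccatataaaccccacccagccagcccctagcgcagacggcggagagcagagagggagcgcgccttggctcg
Both strands were searched, and 1.85% of 35116 RefSeq promoters of the same length held these letters. Promoters were listed for 8 of the 10 RNAs, and MEG3 was the only one of these with a match at its most upstream start.

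MIR31HG is the host of the microRNA miR-31 on chromosome 9 (21380073 to 21559891, minus strand), between the interferon genes and the CDKN2A locus, and has been described to act with polycomb on CDKN2A. It was at 3.45, 2.79 and 2.72 CPM in young and at 9.11, 23.5 and 21 CPM in senescent empty vector cells. All senescent libraries were above all young ones. Its log2 fold change was 2.58 (SE 0.28, edgeR adjusted p = 7.5e-07), a 5.98-fold difference. Its neighbours did not share the direction: KLHL9, 44.7 kb before it, fell by 0.51 and MTAP, 243 kb after it, fell by 0.61 on the log2 scale (edgeR adjusted p = 0.0129 and 6.0e-05). IFNWP19, an interferon pseudogene that lies on the other strand inside MIR31HG's exons, had 14 to 66 counts in the young libraries and 0 in all senescent ones, beside 56 to 121 counts of MIR31HG itself in the young libraries. With the genes that share its exonic bases summed into it, MIR31HG was still called higher, at a log2 fold change of 2.05 (edgeR adjusted p = 5.8e-06). MIR31 and SNORD39, small RNA genes hosted by it, had 0 counts in every library.

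The start of MIR31HG is shown as the second promoter of an RNA that differed strongly (RefSeq, GRCh38.p14, chr9:21559749-21560048, minus strand). It has 77.7% G and C and holds none of the 3 motifs searched, TGACGTCA, the AP-1 site TGANTCA and the CCAAT box, so it is printed without capitals:
MIR31HG: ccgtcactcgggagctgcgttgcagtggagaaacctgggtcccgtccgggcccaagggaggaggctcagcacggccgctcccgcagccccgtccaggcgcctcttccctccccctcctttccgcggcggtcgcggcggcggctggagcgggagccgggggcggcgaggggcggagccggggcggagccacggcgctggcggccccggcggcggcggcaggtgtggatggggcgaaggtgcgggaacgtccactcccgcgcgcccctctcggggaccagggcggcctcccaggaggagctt
AP-1 sites were in 7.71% and CCAAT boxes in 34.6% of the 35116 promoters. No match says only that these letters are not in this window.

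The mature microRNAs after which MIR31HG and MIR22HG are named are given to show what these hosts would yield, with the seed (bases 2 to 8) in capitals. Their levels were not measured. The seeds differ.
hsa-miR-31-5p: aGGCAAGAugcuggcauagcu
hsa-miR-22-3p: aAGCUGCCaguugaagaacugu
The first comes from chr9:21512158-21512178 in MIR31HG and the second from chr17:1713914-1713935 in MIR22HG, both on the minus strand (RefSeq, GRCh38.p14).

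NEAT1 and MALAT1 are neighbours on chromosome 11. NEAT1 (65422774 to 65445540) builds paraspeckles, nuclear bodies that hold RNA-binding proteins, and MALAT1 (65497640 to 65508073) sits in nuclear speckles, where splicing factors gather. NEAT1 was at 46.3, 46.2 and 45.3 CPM in young and at 48.3, 176 and 239 CPM in senescent empty vector cells. The groups did not overlap, but replicate 1 of the senescent group exceeded the highest young library only slightly. The log2 fold change was 1.75 (SE 0.4, edgeR adjusted p = 0.00107) and rose to 2.17 without senescent replicate 1. MALAT1 was at 24.2, 25.7 and 36.1 CPM in young and at 27.2, 122 and 80.4 CPM in senescent cells. Here the groups overlapped, since senescent replicate 1 was below young replicate 3, and the log2 fold change was 1.42 (SE 0.35, edgeR adjusted p = 0.00193). Without senescent replicate 2 it was 0.91 (edgeR adjusted p = 0.0193). The share of counts on mitochondrial genes was 2.22% in senescent replicate 1, 4.21% in replicate 2 and 3.62% in replicate 3, against 1.62% to 2.52% in young empty vector cells, and its part in the difference was not tested. FRMD8, a protein-coding gene 9.25 kb before NEAT1, rose by 0.97 on the log2 scale (edgeR adjusted p = 1.8e-06).

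Transcripts of paraspeckle protein genes did not rise with NEAT1. Of 10 such genes, 8 were lower, none was higher and 2 did not pass the test, with a median log2 fold change of -0.78. Of all genes tested, 31.9% were called lower and 32.7% higher, with a median of 0.02. MATR3, which did not pass, had few counts, at a mean of 0.406 CPM in young and 0.602 CPM in senescent empty vector cells. The cause of this low count was not tested. HNRNPH3 fell by 1.3, RBM14 by 1.2, SFPQ by 1.28 and HNRNPK by 0.84 on the log2 scale (edgeR adjusted p between 1.6e-10 and 1.5e-07). SFPQ is needed to assemble the body, and RBM14 and HNRNPK are required for its formation. In senescent against young TRF2 cells, where NEAT1 itself was not called, 8 of the 10 were lower, against 30.1% of all genes tested. These 8 left out PSPC1 (-0.16, edgeR adjusted p = 0.276), which had been lower with the empty vector. They took in DAZAP1 (-0.36, edgeR adjusted p = 0.0234), which had not.

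DANCR, named for its block of differentiation and the host of SNORA26, was the only RNA of the 8 called lower. It was at 19.7, 17.5 and 20.7 CPM in young and at 7.03, 8.41 and 11.7 CPM in senescent empty vector cells. All senescent libraries were below all young ones. Its log2 fold change was -1.09 (SE 0.15, edgeR adjusted p = 7.5e-06), and it stayed between -1.34 and -0.94 with each library left out. USP46, 53 kb before it, was not called (log2 fold change -0.08), and RASL11B, 139 kb after it, was at 0.973 CPM in young and 0.0355 CPM in senescent empty vector cells. The DANCR promoter (RefSeq, GRCh38.p14, chr4:52712144-52712443, plus strand) is shown for the CCAAT boxes in capitals, ATTGG on the opposite strand:
DANCR: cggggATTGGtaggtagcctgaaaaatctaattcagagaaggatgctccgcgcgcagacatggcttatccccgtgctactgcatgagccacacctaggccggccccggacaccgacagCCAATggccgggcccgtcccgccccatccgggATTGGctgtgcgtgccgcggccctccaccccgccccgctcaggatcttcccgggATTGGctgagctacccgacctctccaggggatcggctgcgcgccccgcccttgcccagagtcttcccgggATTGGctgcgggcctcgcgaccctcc
It held 5 matches, against 3 in GAS5, 2 in MIR22HG, 1 in MEG3 and 0 in the other 4 promoters listed. The 4 boxes before the start begin 245, 132, 100 and 46 bases from it.

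GAS5 and MIR22HG were not called. GAS5, a snoRNA host that accumulates on growth arrest and binds the glucocorticoid receptor, was at 90.4, 88.3 and 91.7 CPM in young and at 82.4, 82.3 and 112 CPM in senescent empty vector cells. Senescent replicates 1 and 2 lay below all young libraries and replicate 3 above, with a log2 fold change of 0.03 (95% interval -0.19 to 0.25, edgeR adjusted p = 0.799). The result for GAS5 depended on the processing: once GC content and gene length were corrected it was 0.44 (edgeR adjusted p = 0.00811), and without senescent replicate 3 it was -0.15 (edgeR adjusted p = 0.0478). MIR22HG, the host of miR-22, was at 17, 14.3 and 15.9 CPM in young and 13.3, 19.3 and 23.8 CPM in senescent cells, which overlapped (log2 fold change 0.26, 95% interval -0.1 to 0.63, edgeR adjusted p = 0.186). Without senescent replicate 1 it was 0.45 (edgeR adjusted p = 0.0104). Of 13 other snoRNA hosts, 5 were higher, 3 lower and 5 not called, with a median of 0.01. Of all genes tested 32.7% were called higher and 31.9% lower, so these counts say little about the hosts. SNHG16 fell by 1.24 and SNHG32 by 1.47 on the log2 scale, while SNHG7 rose by 1.33 and SNHG12 by 1.6. These 4 share 9.54% to 35.8% of their exonic bases with other genes.

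PVT1 is a long RNA downstream of MYC on chromosome 8 (127794526 to 128187101). It was low throughout, at 3.42, 4.49 and 4.13 CPM in young and 7.96, 7.59 and 9.66 CPM in senescent empty vector cells, with no overlap. PVT1 had a log2 fold change of 1.06 (SE 0.19, edgeR adjusted p = 1.1e-04). MYC, 51.6 kb before it, fell by 0.55 and CYRIB, 1650 kb after it, fell by 1 on the log2 scale (edgeR adjusted p = 4.6e-04 and 1.4e-07). RNVU1-32, a small nuclear RNA gene inside PVT1's exons, had up to 11 counts in a young library and 0 in the senescent ones. With the genes that share its exonic bases summed into it, the log2 fold change of PVT1 was 1.03.

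H19 and CDKN2B-AS1 could not be tested. H19, the imprinted RNA that is expressed from the maternal allele beside IGF2, had 14 counts over all 15 libraries. It was at 0 in the 3 siLMNB1 libraries, where 3 counts over the group would be 0.0291 CPM, a limit that covers counting error only. IGF2 was at 45.9 to 47.5 CPM in young and 0.162 to 0.741 CPM in senescent empty vector cells, and fell by 6.57 on the log2 scale (SE 0.27, edgeR adjusted p = 6.0e-12), although 44.4% of its exonic bases are shared with other genes. CDKN2B-AS1, also named ANRIL, runs antisense through CDKN2B and is known to bring polycomb proteins to CDKN2A and CDKN2B. It had 3 to 17 counts per library, at 0.209, 0.147 and 0.112 CPM in young and 0.223, 0.222 and 0.162 CPM in senescent empty vector cells, a difference not detectable at this depth. CDKN2A rose by 1.2 and CDKN2B by 1.19 on the log2 scale (edgeR adjusted p = 9.7e-06 and 6.5e-08).

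The same comparison in cells expressing TRF2 called fewer of the RNAs. MIR31HG and PVT1 were higher and DANCR was lower, 2 higher and 1 lower of 8 by edgeR, where 28.2% of all genes tested were called higher and 30.1% lower. The median log2 fold change was -0.05 over the 8 RNAs, 0.04 over the 1641 long non-coding RNA genes and -0.02 over all genes tested. Among those 1641 genes 19.4% were called higher and 17.9% lower. The 4 markers of dividing cells were called lower here too, with a summed level of 29.8 to 34.6 CPM in senescent and 338 to 424 CPM in young TRF2 cells.

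DANCR was at 21.7, 18.6 and 20.8 CPM in young TRF2 cells and at 9.5, 9.49 and 9.49 CPM in senescent TRF2 cells, a log2 fold change of -1.1 (SE 0.14, edgeR adjusted p = 6.6e-06). PVT1 was at 3.37, 4.81 and 4.73 CPM in young and 6.53, 6.94 and 8.32 CPM in senescent TRF2 cells (0.76, SE 0.18, edgeR adjusted p = 0.00193). MIR31HG was at 2.66, 2.91 and 3.79 CPM in young and 6.09, 4.78 and 7.35 CPM in senescent TRF2 cells (0.97, SE 0.28, edgeR adjusted p = 0.0072). In each of the 3 the groups did not overlap. The call of MIR31HG was lost when the genes that share its exonic bases were summed into it (0.41, edgeR adjusted p = 0.207). Of these genes, IFNWP19 had reads only in the young libraries.

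NEAT1 was at 59.9, 117 and 69.3 CPM in young and 80.9, 83.3 and 51.1 CPM in senescent TRF2 cells. These overlapped, and the log2 fold change was -0.19 (95% interval -1.01 to 0.62, edgeR adjusted p = 0.686). MALAT1 was at 41.3, 48.3 and 38.2 CPM in young and 48.3, 44 and 31.7 CPM in senescent TRF2 cells, with a log2 fold change of -0.04 (95% interval -0.76 to 0.67, edgeR adjusted p = 0.92). MEG3 was at 55.5, 107 and 65.7 CPM against 136, 147 and 87 CPM (0.7, 95% interval -0.14 to 1.54, edgeR adjusted p = 0.142), and without young TRF2 replicate 2 its fold change was 1.02 (edgeR adjusted p = 0.0662). GAS5 and MIR22HG were at -0.05 and -0.07 on the log2 scale and were not called. Young TRF2 replicate 2 was the highest of its group for NEAT1, MALAT1 and MEG3, and it also had the most TERF2, at 307 CPM against 128 and 149.

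Whether the senescence difference itself differed with TRF2 was tested by the interaction. None of the 8 RNAs passed in edgeR, where 0.177% of all genes tested were called positive and 0.956% negative. DESeq2's Wald test called 1, MIR31HG, and 4 of the 8 had an unadjusted p below 0.05. The median difference between the log2 fold changes was -0.9 over the 8 RNAs and -0.03 over all genes tested. Over the 1641 long non-coding RNA genes tested it was -0.25, with 0% called positive and 0.488% negative by edgeR. The difference between the log2 fold changes was -1.62 for MIR31HG (SE 0.39, edgeR adjusted p = 0.0588), -2.04 for MEG3 (SE 0.56, edgeR adjusted p = 0.0987), -1.95 for NEAT1 (SE 0.55, edgeR adjusted p = 0.105) and -1.46 for MALAT1 (SE 0.48, edgeR adjusted p = 0.163). Without senescent empty vector replicate 1, all 4 were called, with edgeR adjusted p between 1.5e-04 and 3.3e-04. That fit also called many more of all genes tested, as given below. The number of RNAs called depended on which library was left out. For DANCR the difference was -0.01 (95% interval -0.44 to 0.42).

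**Figure D2:**
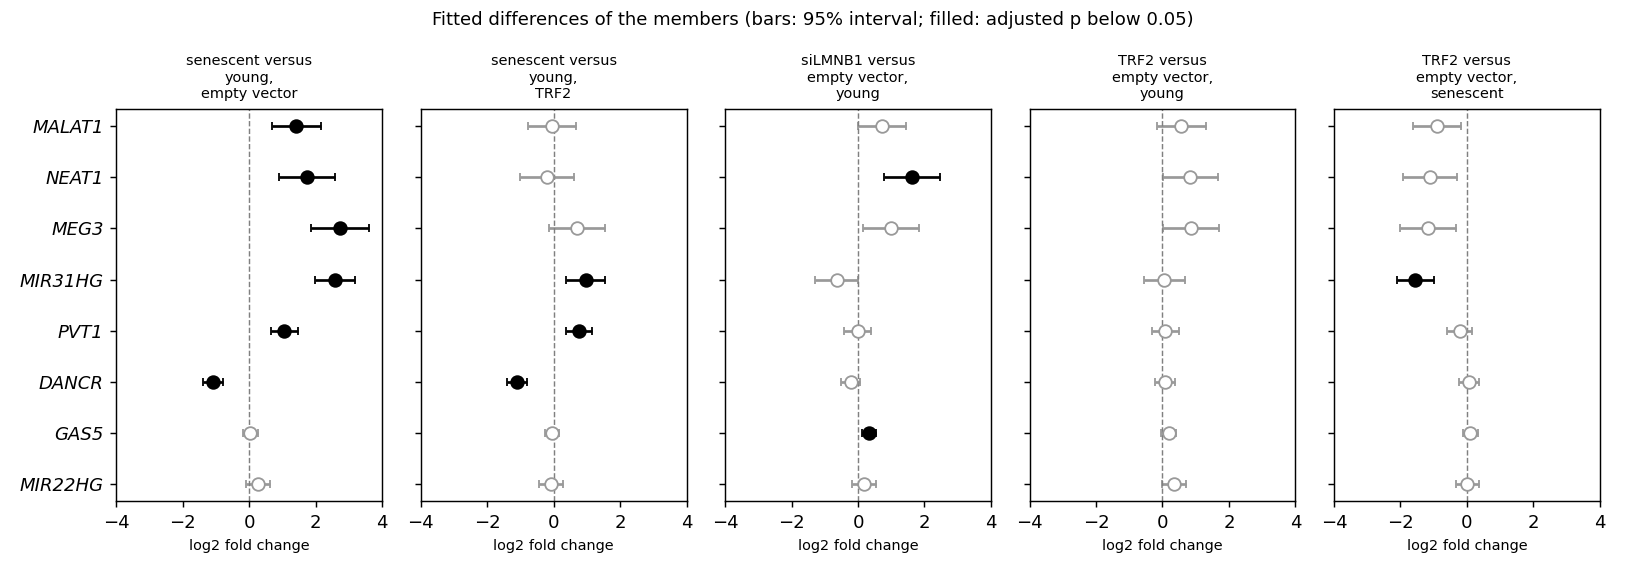
Log2 fold change of each tested RNA in 5 comparisons, on a horizontal axis from -4 to 4 with 95% intervals, filled where the edgeR adjusted p was below 0.05. DANCR was at -1.09 and -1.1 in the 2 senescence comparisons, whereas NEAT1 was at 1.75 and -0.19. Several comparisons share control libraries.

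Within the senescent cells, all labelled as a reanalysis, TRF2 was compared with the empty vector. MIR31HG was lower with TRF2, the only RNA called of 8, where 4.87% of all genes tested were called higher and 6.41% lower. Its 6.09, 4.78 and 7.35 CPM with TRF2 were all below its 9.11, 23.5 and 21 CPM with the empty vector. The log2 fold change was -1.56 (SE 0.26, edgeR adjusted p = 0.00172) and stayed called with each library left out, between -1.86 and -1.31. The call was lost in a model of these 6 libraries alone (-1.55, edgeR adjusted p = 0.0968). CDKN2A was at 34.3 to 61.4 CPM with the empty vector and 57.3 to 64.8 CPM with TRF2 and was not called (log2 fold change 0.43, edgeR adjusted p = 0.0958). The 4 markers of dividing cells were also called lower with TRF2, at a summed level of 29.8 to 34.6 CPM against 52.2 to 63.1 CPM, and 6 of the 7 fibroblast markers were called higher. Their part in the difference was not tested.

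MEG3, NEAT1 and MALAT1 were lower with TRF2 on average but not called. Their ranges overlapped, with senescent empty vector replicate 1 below all 3 TRF2 libraries for each of them. On the log2 scale the difference was -1.18 for MEG3 (95% interval -2.02 to -0.34, edgeR adjusted p = 0.0666), -1.11 for NEAT1 (95% interval -1.93 to -0.29, edgeR adjusted p = 0.0776) and -0.89 for MALAT1 (95% interval -1.61 to -0.17, edgeR adjusted p = 0.101). All 3 were called without senescent empty vector replicate 1, at -1.61, -1.53 and -1.29, and with offsets for GC content and length, at -1.35, -1.43 and -1.09. The fit without replicate 1 also called many more of all genes tested, as given below. Without replicate 3 the 3 RNAs were at -0.75, -0.65 and -0.86 and not called. Mitochondrial counts were 1.97% to 2.13% with TRF2, below all 3 empty vector libraries, and their part was not tested. GAS5, MIR22HG, DANCR and PVT1 were at 0.11, 0.02, 0.07 and -0.21 on the log2 scale. The median was -0.55 over the 8 RNAs, -0.17 over the 1641 long non-coding RNA genes and -0.02 over all genes tested.

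**Figure D3:**
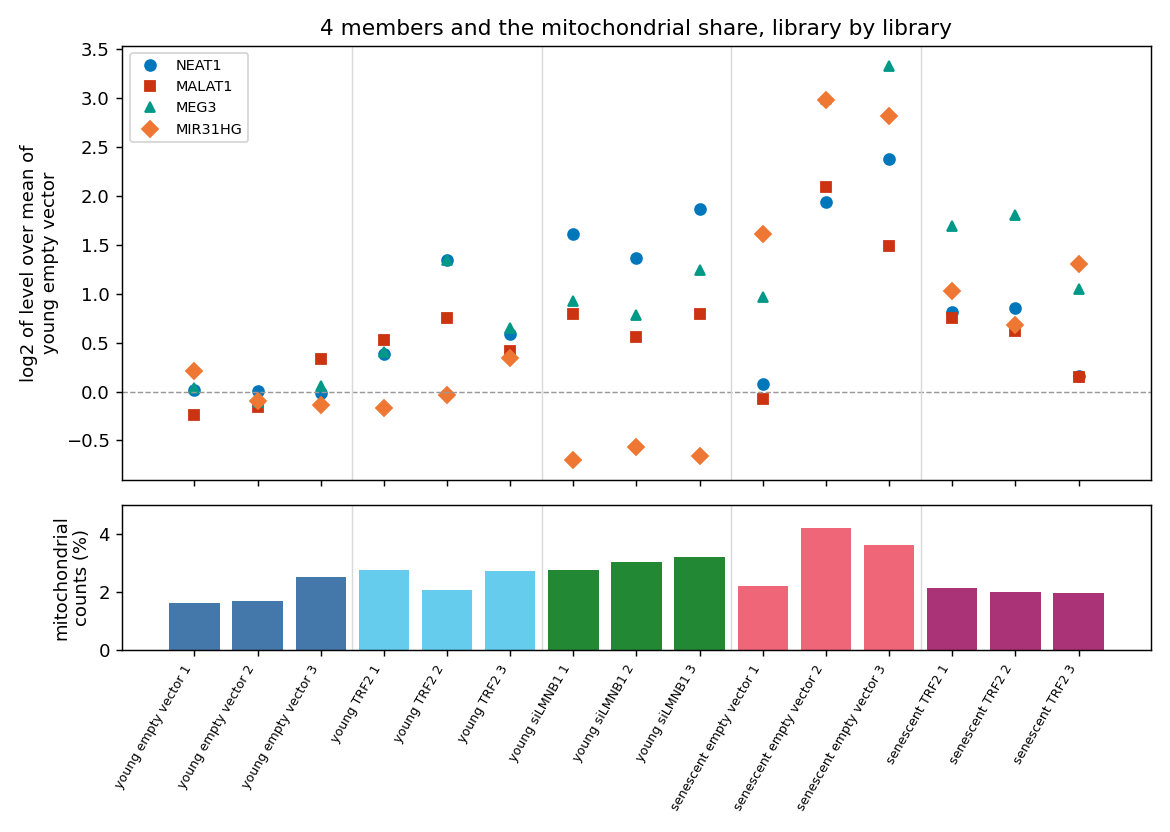
Upper panel, log2 of the level of NEAT1, MALAT1, MEG3 and MIR31HG over their mean in young empty vector cells, for the 15 libraries along the horizontal axis. Lower panel, percent of counts on mitochondrial genes. Senescent empty vector replicates 2 and 3, with 4.21% and 3.62%, hold the highest values of all 4 RNAs.

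Young cells with siLMNB1 were compared with young empty vector cells. NEAT1 and GAS5 were higher, 2 of 8 called, and none was lower, where edgeR called 16.4% of all genes tested higher and 16.1% lower. DESeq2's Wald test also called 2, and 3 of the 8 had an unadjusted p below 0.05. Of the 1641 long non-coding RNA genes tested edgeR called 15.3% higher and 5.48% lower. The median log2 fold change was 0.25 over the 8 RNAs, 0.28 over those 1641 genes and 0.04 over all genes tested. NEAT1 was at 140, 118 and 168 CPM after siLMNB1, all above its 46.3, 46.2 and 45.3 CPM with the control siRNA. The log2 fold change was 1.63 (SE 0.39, edgeR adjusted p = 0.00475), a 3.09-fold difference, and stayed between 1.49 and 1.75 with each library left out. GAS5 was at 106, 116 and 118 CPM against 90.4, 88.3 and 91.7 CPM, also without overlap. Its log2 fold change was 0.33 (SE 0.1, edgeR adjusted p = 0.0206), and its adjusted p was 0.0558 without young empty vector replicate 1, 0.0674 without replicate 2, 0.0614 without siLMNB1 replicate 2 and 0.0733 without siLMNB1 replicate 3.

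MEG3, MALAT1 and MIR31HG did not pass the test, although their siLMNB1 and control libraries did not overlap. How many of all genes tested separate in this way was not counted. MEG3 was at 79.7, 72 and 99.4 CPM after siLMNB1 (log2 fold change 1, 95% interval 0.15 to 1.85, edgeR adjusted p = 0.0679). MALAT1 was at 49.5, 42.3 and 49.5 CPM (0.72, 95% interval -0.01 to 1.44, edgeR adjusted p = 0.122). MIR31HG lay the other way, at 1.84, 2.01 and 1.89 CPM, below its 3 controls (-0.64, 95% interval -1.29 to 0.01, edgeR adjusted p = 0.122). In a model of these 6 libraries alone all 3 were called, and the share of all genes called by that model is not given here. DANCR, PVT1 and MIR22HG were at -0.22, -0.01 and 0.18 on the log2 scale. Of the 10 paraspeckle genes 6 were lower after siLMNB1 and none was higher, against 16.1% and 16.4% of all genes tested. Mitochondrial counts were 2.75% to 3.21%, above the 1.62% to 2.52% of the controls. All 4 markers of dividing cells were called lower, with a summed level of 200 to 206 CPM against 406 to 433.

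With TRF2 in young cells none of the 8 RNAs was called by edgeR, where 0.152% of all genes tested were called higher and 0.0253% lower, nor by DESeq2's Wald test. Without the filter on low counts edgeR called 3, NEAT1, MEG3 and MALAT1, and in a model of these 6 libraries alone it called the same 3. Adjusted p-values fell by many orders without the filter, and the cause was not tested. The share of all genes called in these settings is not given here. NEAT1 and MEG3 had an unadjusted p below 0.05, with log2 fold changes of 0.84 (95% interval 0.01 to 1.66, edgeR adjusted p = 0.511) and 0.86 (95% interval 0.01 to 1.71, edgeR adjusted p = 0.511). Their 3 TRF2 libraries were above all 3 controls, a separation not counted over all genes. Without young TRF2 replicate 2 the values were 0.49 and 0.53. MALAT1 was at 0.57, MIR22HG at 0.35 and GAS5 at 0.19, and the remaining 3 lay within 0.09 of 0. The median was 0.27 over the 8 RNAs, 0.09 over the 1641 long non-coding RNA genes and 0.01 over all genes tested.

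For each tested RNA the genes with the most similar log2 level over the 15 libraries were taken as a description. These points share their libraries, groups and deposits, and no test was made. MALAT1 was most like MIR34AHG, the p53-linked host of miR-34a (Pearson r = 0.946), and MEG3 was most like LENG8 (r = 0.988) and ANKRD10 (r = 0.972). NEAT1 was nearest to CCDC57 (r = 0.932) and REC8 (r = 0.926). MIR31HG followed DRP2 (r = 0.987) and RAB7A (r = 0.98), DANCR followed RABGGTB (r = 0.987) and H3-3B (r = 0.983), and PVT1 followed ANKLE2 (r = 0.965) and CIAO3 (r = 0.964). GAS5 and MIR22HG reached 0.88 with MAGED2 and 0.867 with GTPBP2.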

How the data were processed

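The 15 MRC-5 libraries fell by their labels into 5 groups of 3. Per the study's methods and the submitters' processing notes, paired reads were trimmed with Trimmomatic, mapped to GRCh38 with STAR and counted per gene, and the authors deposited these raw counts without normalization. The release of the annotation and the strand setting are not given in the sources used here. Genes were named with GENCODE 44, and 279 entries of the table were absent from it.

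Counts were scaled by TMM, filtered with filterByExpr (15799 of 57272 genes left) and fitted in edgeR 4.0.16 with a mean for each of the 5 groups over all 15 libraries (quasi-likelihood test, R 4.3.3). The p-values were two-sided and adjusted by the Benjamini-Hochberg method over all tested genes, with calls below 0.05. CPM are TMM-scaled. Intervals are 95%. No interval for single counts was made, and the number of libraries limits the precision.

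The 10 RNAs and the gene lists were chosen with earlier results of these data known. Named beside the 10 were genes that share their exonic bases or are hosted by them, the nearest tested protein-coding genes and the 2 genes most correlated with each. From most lists at most 4 genes were named, those with the smallest p in the first comparison. This rule was not kept for the cell type markers. For the paraspeckle genes PSPC1, DAZAP1 and MATR3 were added. Among the imprinted genes MEG8 was named and CDKN1C was not.

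Alternatives were DESeq2 1.42.0 (size factors, Wald test), no filter, only the libraries compared, a replicate block and loess offsets for GC content and length (span 0.3). Others were the block with these offsets, the fold thresholds of the study (1 and 0.58 on the log2 scale) and each library left out. In a further one each RNA was summed with every counted gene that shares exonic bases with it, on either strand. The sum is dominated by CDKN2A for CDKN2B-AS1, and GAS5 was left unsummed, since its sum is not reported here. Replicate numbers did not pair the libraries. Steps were tested on simulated data. Promoters and microRNAs came from RefSeq (GRCh38.p14), searched in Python 3.11.15.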

Additional observations from a re-analysis of the deposited data

How the results depend on the processing

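Over the 8 tested RNAs, most values kept their direction and their side of the threshold. The calls of senescent versus young empty vector cells held under all alternatives, with 6 to 7 RNAs called when each library was left out, with GAS5 added by the offsets. In the TRF2 cells 3 were called whichever library was left out and 1 with the fold threshold of the study, and with the summed loci MIR31HG was lost. For siLMNB1 the number called was 5 without the filter, 6 with only the libraries compared, 1 with the fold threshold and 1 to 2 with each library left out. For TRF2 in young cells it was 3 without the filter, 3 with only the libraries compared and 0 to 0 with each library left out. For TRF2 in senescent cells it was 4 without the filter, 4 with offsets for GC content and length, 0 with only the libraries compared and 1 to 4 with each library left out. For the interaction it was 1 with DESeq2's Wald test, 4 without the filter, 1 with the offsets, 1 with the replicate block and offsets, 1 with the summed loci and 0 to 4 with each library left out. The number of all genes called for TRF2 in senescent cells was 1782, 2632 without the filter, 2 with only the libraries compared and 4411 without senescent empty vector replicate 1. For the interaction it was 179, 955 without the filter and 2089 without that library. Adjusted p-values fell by many orders without the filter, and the cause was not tested. GAS5 in senescent versus young empty vector cells was 0.03 and lay between -0.15 and 0.1 with each library left out, the lowest without senescent empty vector replicate 3. The replicate numbers did not pair the libraries: correlations of deviations between same-numbered libraries were -0.105 to 0.0669, and 3 of 15 matched their own number best. With the replicate block 6, 3, 2, 0, 1 and 0 RNAs were called in the order above, the same numbers as without it. Depth limited H19 and CDKN2B-AS1, with at most 3 and 17 counts in a library.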

Other observations

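Other non-coding RNAs linked with senescence or p53 were counted in the same fits. PURPL, an RNA induced by p53 that restrains p53, was at 0.0626 to 0.831 CPM in the 9 young libraries and at 4.07 to 9.37 CPM in the 6 senescent ones, with edgeR log2 fold changes of 4.25 (adjusted p = 8.0e-07) with the empty vector and 3.56 (adjusted p = 4.3e-06) with TRF2. Unlike NEAT1 and MALAT1, it separated all senescent from all young libraries, senescent empty vector replicate 1 included, at 5.8 CPM. MIR34AHG was at 1.97, 7.82 and 8.52 CPM in the senescent empty vector libraries against 1.22, 1.38 and 1.79 CPM in the young ones (log2 fold change 2.07, edgeR adjusted p = 2.6e-04). It was lower with TRF2 in senescent cells (-1.27, edgeR adjusted p = 0.0376), higher after siLMNB1 (1.13, edgeR adjusted p = 0.0414), and its interaction was called (-2.4, edgeR adjusted p = 0.0431). Of 6 p53-linked RNAs listed, 4 were tested, and 2 were higher and 0 lower in senescent empty vector cells. The shares over all genes tested were 32.7% higher and 31.9% lower.

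Among 12 tested of 16 other senescence-linked RNAs, 5 were higher and 3 lower in senescent empty vector cells, where 32.7% of all genes tested were called higher and 31.9% lower, so these counts say little about the list. MIR100HG fell by 0.95 and MIR155HG fell by 3.35 on the log2 scale, and FENDRR rose by 0.36 and MIR503HG by 1.62. CDKN1A, a p53 target that arrests the cell cycle, rose by 0.94 on the log2 scale (edgeR adjusted p = 1.2e-07), and MDM2, another target, fell by 0.62 (edgeR adjusted p = 0.00145).

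The near-identical genes of the 7SL RNA changed places between young and senescent libraries. RN7SL1 was at 0 in all 9 young libraries and at 30 to 70.7 CPM in the senescent ones, and RN7SL2 was at 11.4 to 16.7 CPM in the young libraries and at 0 in all 6 senescent ones.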
